A study of Mus musculus with 4 samples.

Results

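Of the 12885 peaks in the deposited list of SCL binding, 2779 (21.6%) lay outside promoters and carried a GATA motif and an E-box that did not form the usual composite of the pair. They were chosen by sequence and position alone. The list holds more peaks than the study counts as bound, and all of its rows were used here. The summit was more than 1 kb from every annotated transcription start site (TSS). The window of 50 bp to each side of the summit held, on either strand, A or T followed by GATA and then A or G, and also CANNTG, but no CTG followed after 7 to 9 bp by GATA. These 2779 summits made up 23.6% (Wilson 95% interval 22.8 to 24.3) of the 11793 distal peaks. The others were 3885 composite peaks, 2506 with GATA and no E-box, 1508 with an E-box and no GATA, and 1115 with neither motif. A further 193 promoter peaks met the motif rule and were left out by their position. The closest summits kept and left out were 1002 bp from a TSS of Stra6 (fold enrichment 11.8) and 996 bp from a TSS of Rnf121 (fold 7.98).

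SCL was mapped by chromatin immunoprecipitation and sequencing (ChIP-seq) in FLK1+ mesoderm, sorted at day 3.5 from embryoid bodies, the aggregates in which wild-type J1 embryonic stem (ES) cells were differentiated. The labels give the strain as C57Bl/6 X Sv129, and all libraries share genotype, stage and sort. There were 2 libraries made with an in-house SCL rabbit antiserum, labelled as replicates and made from this ES cell line, and 2 input libraries made with no antibody. The FLK1+ fraction, isolated on magnetic columns, holds precursors of several mesodermal lineages, so a peak is an average over mixed cells. The list is a single call on the merged libraries and holds no value for each library, so no difference below could be tested against replicate error. Intervals cover counting error only, and peaks are not replicates.

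SCL (gene symbol Tal1) is a basic helix-loop-helix (bHLH) protein that starts the blood programme in mesoderm. It binds the E-box, CANNTG, as a dimer with an E protein, and the bridging proteins LMO2 and LDB1 join this dimer to a GATA factor on DNA. The classical arrangement is the composite motif, in which CTG, the end of an E-box, lies about a helical turn before GATA on the same strand. The peaks described here have both recognition sequences in some other layout.

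The 10 members with the highest fold are printed first, because they show how varied these layouts are. Each line gives the gene with the nearest TSS, the window on mm9 (NCBIM37), and its plus strand, 50 bases to each side of the summit. Capitals mark every GATA motif and every E-box, and TATC is GATA read on the other strand.
Gm12158, chr11:44560383-44560483, + strand: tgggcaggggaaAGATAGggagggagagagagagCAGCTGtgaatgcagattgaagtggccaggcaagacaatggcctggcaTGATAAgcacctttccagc
Reln, chr5:21854381-21854481, + strand: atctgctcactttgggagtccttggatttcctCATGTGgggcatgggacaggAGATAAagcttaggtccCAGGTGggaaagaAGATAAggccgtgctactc
Mknk1, chr4:115522021-115522121, + strand: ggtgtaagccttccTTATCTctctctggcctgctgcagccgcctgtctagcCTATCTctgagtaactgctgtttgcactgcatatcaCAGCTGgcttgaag
Rpp25, chr9:57353733-57353833, + strand: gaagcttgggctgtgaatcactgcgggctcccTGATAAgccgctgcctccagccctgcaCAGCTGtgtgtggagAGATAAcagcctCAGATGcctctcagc
Gse1, chr8:122894020-122894120, + strand: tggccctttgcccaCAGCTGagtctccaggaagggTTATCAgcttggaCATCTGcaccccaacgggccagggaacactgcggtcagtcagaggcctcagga
Pde4dip, chr3:97694311-97694411, + strand: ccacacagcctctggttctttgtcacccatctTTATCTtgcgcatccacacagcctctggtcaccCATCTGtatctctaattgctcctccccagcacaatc
Thsd4, chr9:60127502-60127602, + strand: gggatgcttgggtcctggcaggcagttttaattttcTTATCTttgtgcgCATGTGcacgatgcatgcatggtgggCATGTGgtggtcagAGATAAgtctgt
Gm13881, chr2:103734054-103734154, + strand: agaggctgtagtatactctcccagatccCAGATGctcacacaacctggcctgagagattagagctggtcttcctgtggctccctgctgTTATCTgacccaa
Tcf21, chr10:22574313-22574413, + strand: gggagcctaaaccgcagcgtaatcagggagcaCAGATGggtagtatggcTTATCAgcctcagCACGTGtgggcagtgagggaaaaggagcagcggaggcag
4933440J02Rik, chr10:111032868-111032968, + strand: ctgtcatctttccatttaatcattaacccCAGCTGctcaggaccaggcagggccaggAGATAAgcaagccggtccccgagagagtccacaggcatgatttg
These windows had a single E-box or a pair of them, which were CAGCTG in 5 windows, and their GATA motifs stood on either strand and either side of the E-box.

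The next sets show layouts that recur below. Where a stretch is given, it is read on the strand of the GATA motif with 12 bases on each side of the pair, and capitals mark that pair alone. In the first set, an E-box ended 8 to 10 bases before the letters GATA. The 5 members of highest fold of this kind that shared no sequence with another distal window were these.
Reln, chr5:21854438-21854480, + strand: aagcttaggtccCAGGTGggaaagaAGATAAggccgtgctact
Rpp25, chr9:57353780-57353824, + strand: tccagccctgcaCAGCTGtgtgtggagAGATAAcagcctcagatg
Gse1, chr8:122894043-122894085, - strand: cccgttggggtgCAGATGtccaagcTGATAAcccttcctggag
Thsd4, chr9:60127526-60127568, - strand: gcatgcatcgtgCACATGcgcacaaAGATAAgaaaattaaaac
Tcf21, chr10:22574350-22574392, - strand: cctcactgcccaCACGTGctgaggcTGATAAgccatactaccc
At 8 bases the E-box has the distance of the composite, but it ends in GTG or ATG, not CTG. The CAGCTG near Rpp25 ends in CTG and lies 1 base beyond the limit of the composite. In the second set the motifs overlapped, as the final G of the E-box was also the G of GATA. The whole windows of the 5 strongest, on the plus strand, follow.
Adra2a, chr19:54161981-54162081, + strand: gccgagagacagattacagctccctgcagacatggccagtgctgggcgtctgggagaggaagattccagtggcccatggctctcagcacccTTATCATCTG
Gm5423, chr10:53223336-53223436, + strand: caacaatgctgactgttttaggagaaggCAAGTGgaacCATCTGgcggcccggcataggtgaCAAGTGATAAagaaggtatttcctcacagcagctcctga
Epha4, chr1:76673603-76673703, + strand: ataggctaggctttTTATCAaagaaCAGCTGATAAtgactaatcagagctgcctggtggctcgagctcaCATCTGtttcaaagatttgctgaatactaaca
Gm13872, chr2:102585532-102585632, + strand: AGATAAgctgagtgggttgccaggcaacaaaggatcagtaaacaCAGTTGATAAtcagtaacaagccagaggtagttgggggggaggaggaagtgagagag
Etv5, chr16:22410239-22410339, + strand: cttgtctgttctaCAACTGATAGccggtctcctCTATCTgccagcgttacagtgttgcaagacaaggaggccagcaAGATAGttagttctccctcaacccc
The remaining layouts were carried in part by near copies of a sequence at many places in the genome. For each of 4 groups, stretches are shown only from members that carry the layout most frequent in that group, in order of fold, so the layout is what they were chosen for. In the group with the most distal windows this was an E-box 16 bases before GATA, found in 21 of its 78 members, and the letters TGACTCA lie between the motifs in the 4 shown.
Ptpro, chr6:137260886-137260936, + strand: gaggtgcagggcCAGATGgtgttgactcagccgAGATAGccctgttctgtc
Arrdc3, chr13:80112606-80112656, - strand: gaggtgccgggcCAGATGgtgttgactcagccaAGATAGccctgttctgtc
Mut, chr17:41707376-41707426, + strand: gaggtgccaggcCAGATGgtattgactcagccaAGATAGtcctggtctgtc
Mettl21d, chr12:70719787-70719837, + strand: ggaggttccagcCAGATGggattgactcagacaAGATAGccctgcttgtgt
In the group with the most members it was an E-box 2 bases after GATA, found in 76 of 82 members.
Grm5, chr7:94883131-94883167, - strand: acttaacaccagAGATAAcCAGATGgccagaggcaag
1700084J12Rik, chr15:33381941-33381977, - strand: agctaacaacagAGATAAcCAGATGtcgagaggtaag
Gm5458, chr14:20475811-20475847, - strand: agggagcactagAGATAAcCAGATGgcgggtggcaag
In another group it was an E-box 17 bases before GATA, found in 17 of 19 members, with TGAGTCA between the motifs in 3 of the 4 shown.
Vmn2r23, chr6:123648940-123648991, - strand: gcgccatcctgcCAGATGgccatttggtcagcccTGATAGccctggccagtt
Hace1, chr10:46505729-46505780, - strand: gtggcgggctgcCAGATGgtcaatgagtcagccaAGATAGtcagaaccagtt
5530400C23Rik, chr6:133503721-133503772, + strand: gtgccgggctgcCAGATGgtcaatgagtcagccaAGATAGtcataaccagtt
5530400C23Rik, chr6:133291930-133291981, - strand: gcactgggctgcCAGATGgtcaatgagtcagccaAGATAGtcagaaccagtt
In the last group shown the E-box again came after GATA, at 13 bases in 15 of 22 members.
Cand1, chr10:118486228-118486275, - strand: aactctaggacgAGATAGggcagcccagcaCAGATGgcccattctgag
Ppef1, chrX:157183517-157183564, - strand: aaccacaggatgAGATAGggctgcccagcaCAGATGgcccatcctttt
A930002H24Rik, chr17:64120610-64120657, - strand: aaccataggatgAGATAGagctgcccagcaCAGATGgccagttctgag
Tktl2, chr8:69044618-69044665, - strand: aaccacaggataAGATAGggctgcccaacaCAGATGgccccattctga
The 5 members with CAGCTG that were not already shown and had the highest fold are printed last, as whole windows on the plus strand, since CAGCTG is read the same on both strands.
Gata1, chrX:7548572-7548672, + strand: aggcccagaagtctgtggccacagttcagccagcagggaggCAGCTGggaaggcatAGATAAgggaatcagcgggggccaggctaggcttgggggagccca
Olfr65, chr7:111058660-111058760, + strand: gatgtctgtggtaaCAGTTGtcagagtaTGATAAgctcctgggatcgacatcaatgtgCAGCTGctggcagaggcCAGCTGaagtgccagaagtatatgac
Mphosph9, chr5:124717039-124717139, + strand: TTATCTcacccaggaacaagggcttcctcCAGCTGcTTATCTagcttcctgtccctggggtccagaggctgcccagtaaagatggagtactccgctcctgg
Rybp, chr6:99990603-99990703, + strand: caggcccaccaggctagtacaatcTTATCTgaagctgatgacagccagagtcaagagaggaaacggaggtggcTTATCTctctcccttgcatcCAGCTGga
Gm16767, chr13:52318578-52318678, + strand: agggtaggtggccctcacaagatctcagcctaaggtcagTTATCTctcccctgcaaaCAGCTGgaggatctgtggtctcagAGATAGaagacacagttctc
Read on the GATA strand, the window near Gata1 has CAGCTG 10 bases before the letters GATA, and that near Mphosph9 has it 2 bases after them.

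Over all peaks, 73.2% of summit windows held the GATA motif, 52.6% an E-box, 37.8% both and 32.9% the composite. In the 23584 windows that lay 1 kb to either side of the distal summits, the motifs were less frequent, with GATA in 4245, an E-box in 42.6%, both in 7.23% and the composite in 3.10%. Of the flanking windows, 1529 (6.48%) met the rule of the members, and they serve as the background for what the rule did not fix. An E-box is a short and common word, so its presence beside GATA was measured against these flanks. Among distal summits with GATA and no composite, 2779 of 5285 (52.6%, 51.2 to 53.9) held an E-box. Among flanking windows with GATA and no composite, 1529 of 3860 (39.6%, 38.1 to 41.2) did. The difference was 12.97 percentage points (Newcombe 95% interval 10.9 to 15.0). In summits with no GATA at all, an E-box was found in 57.5%, against 43.2% of flanks without GATA, a difference of 14.3 points (12.2 to 16.3). E-boxes were thus more frequent at summits than in flanks with and without GATA, and the intervals of these differences overlapped.

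Members held more than 1 copy of GATA or of the E-box more often than the flanks did. A single GATA motif was found in 2053 members (73.9%), a pair in 649 (23.4%) and 3 or more in 77 (2.77%), with at most 4. In flanks of the same rule, 90.4% had a single GATA motif, and the most in a window was 12. A single E-box was found in 1951 members (70.2%), a pair in 658 (23.7%) and 3 or more in 170 (6.12%), against 76.5%, 19.0% and 4.51% of the flanks. The most in a window was 5 in members and 7 in flanks. There were 1419 members (51.1%) with 1 GATA motif and 1 E-box. Several of the results below, but not all, are also given for these, because a window with more copies has more chances to hold any variant or spacing.

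The E-boxes of the members were not an even draw, and CAGATG and CAGCTG were the most frequent. Among the 10 variants of CANNTG, counted with their reverse complement, CAGATG was found in 1078 members (38.8%, 37.0 to 40.6) and in 18.1% of flanks of the same rule, a difference of 20.7 points (17.98 to 23.3). CAGCTG was found in 603 members (21.7%, 20.2 to 23.3) against 9.22%, a difference of 12.5 points (10.3 to 14.6). Over all peaks CAGATG was in 2521 (19.6%) and CAGCTG in 1812 (14.1%), but only 6773 of the 12885 peaks held any E-box. These shares are thus lowered by windows without an E-box, and are no background for the members. Several variants were less frequent at the members. CAAATG was in 9.79% of members against 19.8% of flanks, CATATG in 3.02% against 6.87%, and CAATTG in 1.55% against 4.25%. Median GC content was 50.5% in members and 43.6% in flanks of the same rule. Its part in the differences between variants was not tested. As members minus flanks, CACATG differed by -4.50 points (-6.90 to -2.18), CAAGTG by -2.34 points (-4.49 to -0.27) and CAACTG by -2.25 points (-4.37 to -0.21), which in members that share no sequence was -1.65 points (-3.83 to 0.45). CACCTG, the E-box that SNAIL and ZEB factors also read, was in 14.8% of both, with a difference of 0.04 points (-2.21 to 2.22). CACGTG, the E-box of the MYC and USF type, was rare in both, at 1.98% and 2.68%. In windows with 1 GATA motif and 1 E-box the differences were 18.2 points (14.9 to 21.5) for CAGATG and 11.3 points (8.74 to 13.8) for CAGCTG. The distal peaks with an E-box and no GATA had higher shares, 42.4% with CAGATG and 25.7% with CAGCTG, and for CAGCTG the lower limit, 23.59%, lay above the interval of the members, while the intervals for CAGATG overlapped.

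The GATA motifs were likewise not an even draw from the 4 that the rule allowed. AGATAA, the preferred site of haematopoietic GATA factors, was found in 1612 members (58.0%, 56.2 to 59.8) against 30.2% of flanks of the same rule, a difference of 27.8 points (24.8 to 30.7). TGATAA was in 29.4% against 27.9%, a difference of 1.51 points (-1.33 to 4.30). In members that share no sequence this difference was 3.57 points (0.64 to 6.45). AGATAG and TGATAG were less common at the members, with 20.4% against 27.3% and 11.3% against 22.2%. Over all peaks AGATAA was in 5654 (43.9%), but only 9426 of the 12885 peaks held a GATA motif. That share is thus lowered by windows without GATA, and is no background for the members. In distal peaks with GATA and no E-box AGATAA was in 62.4%, and in composite peaks in 53.1%. The difference from the flanks was 24.5 points (20.7 to 28.2) in windows with 1 GATA motif and 1 E-box.

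Both motifs lay nearer to the centre of the window at summits than in flanks. The nearest GATA motif was a median of 18.5 bp from the summit (order-statistic 95% interval 17.5 to 18.5), against 22.5 bp (21.5 to 23.5) from the centre of flanking windows. The nearest E-box was 16.5 bp away (15.5 to 17.5), against 20.5 bp (19.5 to 22.5). Within 10 bp of the summit lay an E-box in 910 members (32.7%, 31.0 to 34.5) and a GATA motif in 748 (26.9%, 25.3 to 28.6). In flanks these shares were 25.8% (23.6 to 28.02) and 23.2% (21.2 to 25.4), so the intervals overlapped for GATA. The E-box was the nearer of the pair in 1459 members, the GATA motif in 1294, and both were equally near in 26. In windows with 1 GATA motif and 1 E-box, the medians were 20.5 bp for GATA and 19.5 bp for the E-box, against 24.5 bp for each in the flanks. The plot of motif positions shows a broad rise, with the highest share for the E-box in a bin next to the centre. For GATA the highest share was not at the centre but in the bin at -17.5 bp (8.31%). The E-box was also the nearer motif in 51.9% of flanks, so the order of the pair was alike in both.

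**Figure D1:**
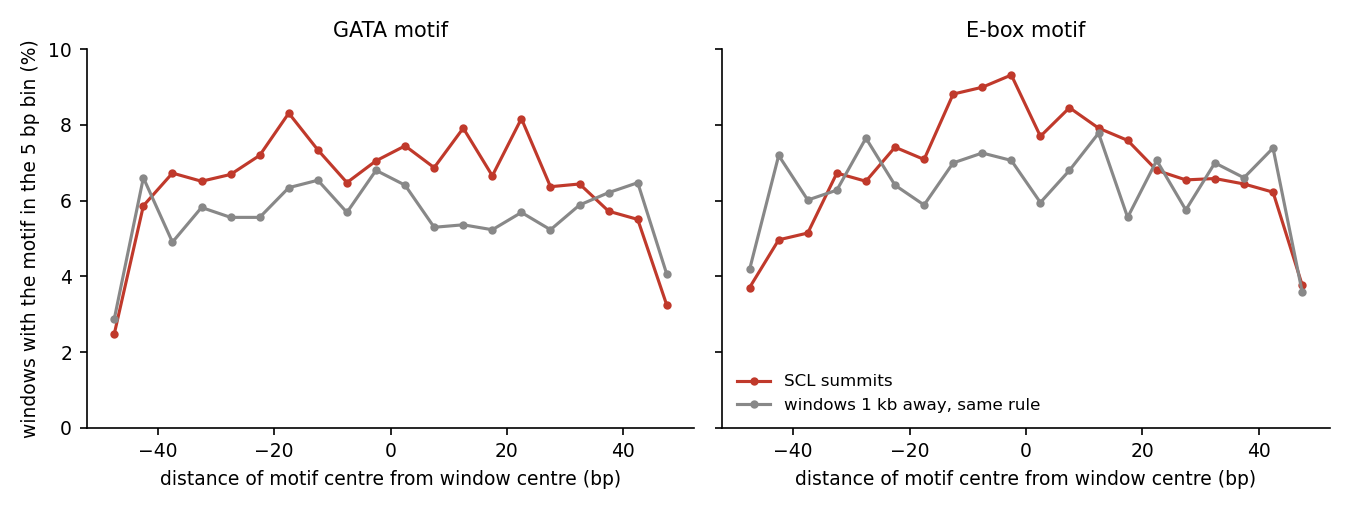
Share of windows (y axis, percent) with the centre of a GATA motif (left) or an E-box (right) in each 5 bp bin of distance from the window centre (x axis, bp), for the 2779 members (red) and the 1529 windows 1 kb away that met the same rule (grey). Bins near the centre are higher at the summits than in the flanks, more so for the E-box. The highest GATA bin at the summits is at -17.5 bp. The outermost bins fall because the motif must fit in the window.

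The label of these peaks calls the E-box separate, but in a part of them it lay at or near the spacing of the composite. Spacing was counted as the bases between the E-box and the letters GATA, with sides read on the GATA strand. An E-box ended 8 to 10 bases upstream of GATA in 499 members (17.96%, 16.6 to 19.4), against 4.06% of flanks of the same rule. Over all peaks 1062 (8.24%) had this layout, but only 4872 of the 12885 peaks held both motifs. Shares of a spacing over all peaks are thus lowered by windows that cannot have one, and are no background for members. The 1062 all fell within these 4872, which hold composite peaks as well as the members. The layout was thus not particular to the members. The difference from the flanks was 13.9 points (12.1 to 15.6). At 8 bases there were 160 members, at 9 bases 211 and at 10 bases 131. In windows with 1 GATA motif and 1 E-box the shares were 13.5% and 2.27%, a difference of 11.3 points (9.26 to 13.3). Of the 2445 members that share no sequence with another distal window, as described below, 19.02% had this layout. Over all peaks, overlapping motifs were in 278 (2.16%), with the same limit. They were found in 158 members (5.69%, 4.88 to 6.61), against 7.65% of flanks, a difference of -1.97 points (-3.62 to -0.43). In members that share no sequence this difference was -1.39 points (-3.09 to 0.21).

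The E-boxes at 8 to 10 bases were of several kinds. Read on the GATA strand, CAGATG was found there in 102 of the 499, CAGGTG in 95, CATGTG in 78 and CAGCTG in 44, the last at 10 bases since CTG at 8 or 9 bases was removed by the rule. The last 3 bases were also counted without requiring a whole E-box. GTG lay 8 bases before GATA in 255 members (9.18%) and 9 bases before it in 326 (11.7%), against 2.42% and 2.49% of flanks. GTG at 5, 6 and 7 bases was found in 3.53%, 4.79% and 5.04%, against 2.42%, 2.49% and 2.68%, and at 10 bases in 3.89%, against 2.68%. ATG was found in 2.02% at 7 bases, 4.86% at 8 and 7.09% at 9, against 1.962%, 3.21% and 2.81%. It was also found in 4.97% at 10 bases and 5.25% at 11, against 2.81% and 2.88%. TTG was found in 3.96% at 9 bases, against 3.01%. CTG itself, missing from 7 to 9 bases by the rule, was found at 10 bases in 290 members (10.4%) against 3.47% of flanks, and at 6 bases in 185 (6.66%) against 2.88%. The highest shares in this count were thus those of GTG at 9 and 8 bases and of CTG at 10.

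A pair of further spacings stood out in the plot of spacing. With the E-box 2 bases downstream of GATA there were 184 members (6.62%, 5.76 to 7.61), against 1.57% of flanks. With the E-box 16 to 17 bases upstream there were 171 (6.15%, 5.32 to 7.11), against 2.62% of flanks. Over all peaks these layouts were in 237 (1.84%) and 240 (1.86%), but only 4872 of the 12885 peaks held both motifs. Both layouts were less frequent in members that share no sequence, at 4.05% for the first and 4.09% for the second. Their differences from the flanks were then 2.48 points (1.44 to 3.48) and 1.47 points (0.30 to 2.58). In all such differences the flanks stayed the same, so shared sequence was left out of the members only. Some other spacings also had more members than flanks. An E-box 7 bases upstream was in 1.58% against 0.72%, 6 bases upstream in 2.16% against 1.05%, 27 bases upstream in 1.73% against 0.85%, and 13 bases downstream in 2.09% against 0.92%. The intervals of members and flanks overlapped at these 3 upstream spacings. At 13 bases downstream they lay apart in all members. In members that share no sequence the share there was 1.72% (1.27 to 2.31), which overlapped that of the flanks (0.55 to 1.53). In windows with 1 GATA motif and 1 E-box it was 0.78%, against 0.66% of flanks. These spacings were picked after their values were seen, and others had ratios of like size. An E-box 11 to 15 bases upstream was in 7.99% of members and 6.67% of flanks (difference 1.32 points, -0.34 to 2.88). An E-box 18 to 40 bases upstream was in 25.5% and 21.3% (4.29 points, 1.64 to 6.87), and in windows with 1 GATA motif and 1 E-box in 16.84% and 16.95%. An E-box 3 to 40 bases downstream differed by 3.21 points (0.17 to 6.20), but by -5.26 points (-8.83 to -1.72) in windows with 1 GATA motif and 1 E-box, so the sign turned. In all, 960 members (34.5%, 32.8 to 36.3) had the E-box in at least 1 of the 4 layouts, against 15.3% of flanks, and 1819 had it in none of them.

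**Figure D2:**
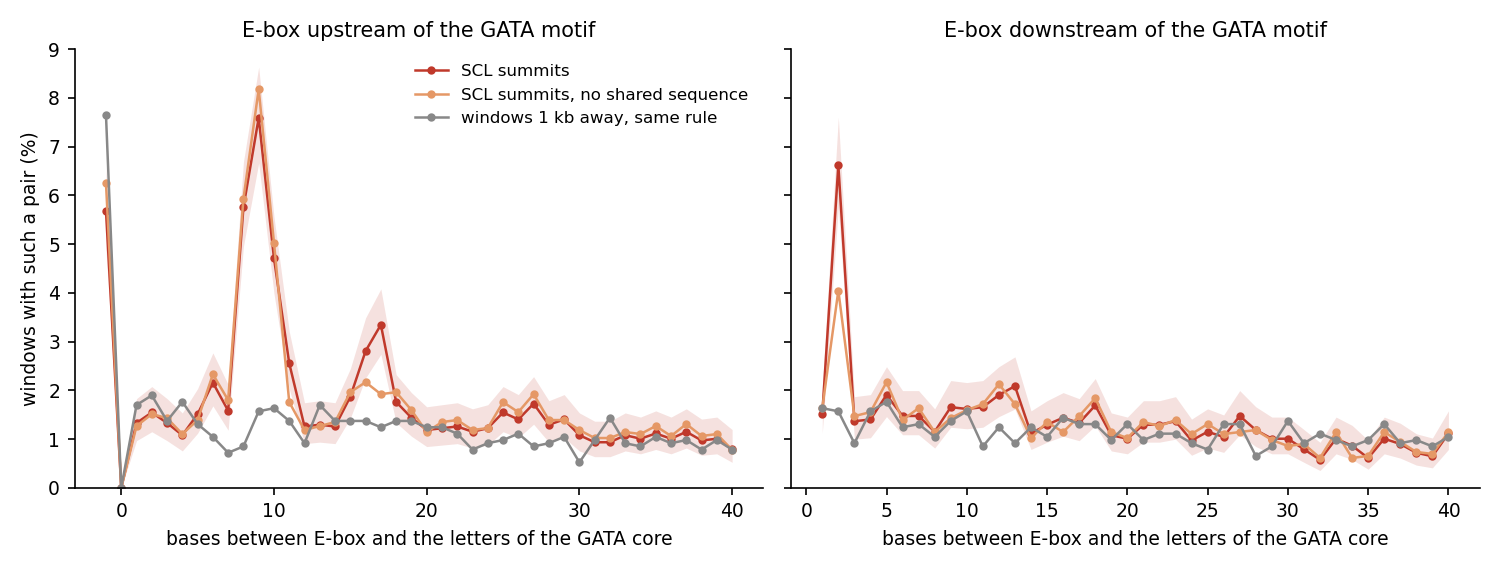
Share of windows (y axis, percent) with an E-box at each number of bases (x axis) upstream (left) or downstream (right) of the letters GATA, for all 2779 members (red, band: Wilson 95% interval), the 2445 that share no sequence (orange) and 1529 flanking windows of the same rule (grey). The peak at 8 to 10 bases upstream is as high without shared sequence, while those at 16 to 17 upstream and 2 downstream are lower; a spacing of -1 marks overlapping motifs.

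Members with near copies elsewhere were then examined. Distal windows were aligned with one another, and windows with an alignment of at least 50 bp were joined into groups. There were 334 members (12.02%, 10.9 to 13.3) in 66 such groups, against 8.93% of composite peaks, 9.66% of peaks with GATA and no E-box and 7.16% of peaks with an E-box and no GATA. The share was 3.09 points higher (1.60 to 4.61) than in composite peaks and 4.86 points higher (3.03 to 6.60) than in peaks with only an E-box. In peaks with neither motif it was 11.7%, and the members were 0.27 points above this (-2.06 to 2.44). No repeat annotation was used here, so the groups are given by number. Reads that matched 2 places were kept in the alignment, and the part of this in the signal of near copies was not tested.

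The 6 groups with the most members held 225 of them. The group with the most distal windows had 180 on its alignments at a median identity of 88.5%, of which 78 were members, 36 composite peaks and 59 peaks with GATA and no E-box. Its members lay on 20 chromosomes, 58 of them between genes, with folds from 6.14 to 84.2 and a median of 15.2. The E-box was 16 or 17 bases upstream of GATA in 38, and TGANTCA, the AP-1 recognition sequence, was in 31. The group with the most members had 129 windows and 82 members, and 76 of these had the E-box 2 bases downstream of GATA. Its median identity was 82.0% and its members' median fold 11.9 (10.1 to 13.7). Another group had 19 members of 37 windows, with an identity of 92.1%, and 17 of them had the E-box 17 bases upstream and 15 held TGANTCA. It included the strongest copy, nearest to a TSS of Vmn2r23, at a fold of 160.2. In the last group printed above, 15 of 22 members had the E-box 13 bases downstream of GATA and the median fold was 8.92 (7.28 to 14.9). The remaining groups held 15 and 9 members. Median fold was 11.7 (10.9 to 13.1) in all 334 members with shared sequence and 11.4 (10.9 to 11.8) in the other 2445.

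SCL enrichment at the members lay between that of composite peaks and that of peaks with a single motif or none. Fold enrichment is the ratio of fragments in the ChIP to those in the local background, as the authors' peak caller gave it. Members had a median fold of 11.4 (11.1 to 11.8), the middle 50% of them lay between 8.09 and 20.8, and the extremes were 2.04 and 259.5. The median pileup, the fragments stacked at the summit as solved from the deposited fold and p, was 53 with quartiles of 36 and 99, and the median width was 383 bp. Composite peaks had a median fold of 13.3 (12.9 to 13.7). Peaks with GATA and no E-box had 10.8 (10.5 to 11.2), peaks with an E-box and no GATA 9.46 (9.17 to 9.90) and peaks with neither 9.01 (8.69 to 9.32). The interval of the members met that of GATA without an E-box at 11.1 to 11.2 and lay apart from those of the other classes.

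A fold of 20 or more was reached by 725 members (26.1%, 24.5 to 27.8), where 25.1% of all peaks reached it. The share of members was 6.73 points below that of composite peaks (-8.92 to -4.52) and 4.14 points above that of peaks with GATA and no E-box (1.83 to 6.43). It was 8.91 points above that of peaks with an E-box only (6.36 to 11.4). A fold of 100 or more was reached by 43 members (1.55%), where 1.67% of all peaks reached it, and by 2.70% of composite peaks. The members' shares were thus near those of the whole list.

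**Figure D3:**
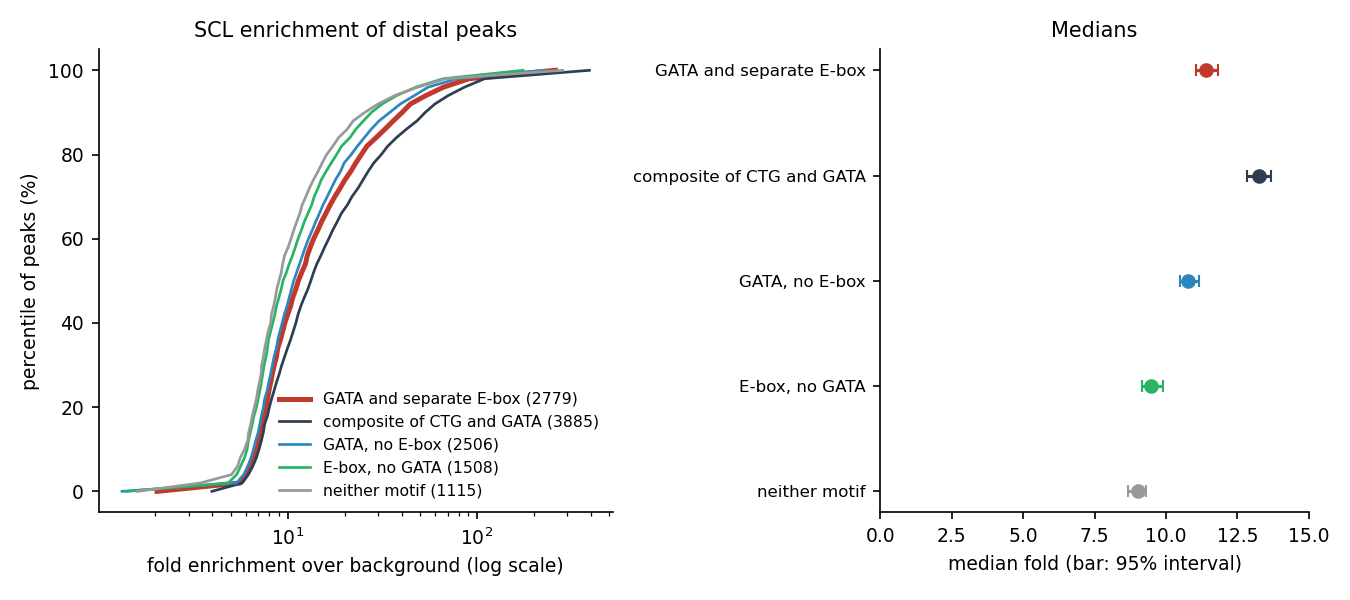
Left, percentile of peaks (y axis) at or below each fold enrichment (x axis, log scale) for the 5 classes of distal peaks, with the number of peaks in brackets; right, median fold with its order-statistic 95% interval. Members (red) have a median of 11.4, between composite peaks at 13.3 and peaks with an E-box and no GATA at 9.46.

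Members were also compared by layout and by motif variant. Those with the E-box 8 to 10 bases upstream had a median fold of 12.5 (11.8 to 13.7), and 31.7% of them reached 20. Members in none of the 4 layouts had 11.03 (10.6 to 11.6), and 24.4% reached 20. Overlapping motifs had a median of 11.5 (9.61 to 13.6) and the E-box 2 bases downstream had 12.5 (11.3 to 13.4). With the E-box 16 to 17 bases upstream, the median was 15.6 (11.4 to 20.7) in the 71 members of shared sequence and 9.18 (8.57 to 10.2) in the 100 others. By variant, medians ran from 9.57 (8.09 to 13.4) for the 43 members with CAATTG to 12.4 (11.2 to 12.97) for the 603 with CAGCTG, and members with CAGATG had 11.4 (10.8 to 12.03). AGATAA gave 12.04 (11.5 to 12.5) and TGATAG 10.9 (10.2 to 12.3). These intervals overlapped, and no variant stood apart.

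Recognition sequences of other blood and mesoderm factors were counted in the same windows on both strands. AGGAA, the core bound by ETS factors such as FLI1 and ERG, was in 1325 members (47.7%, 45.8 to 49.5), against 29.2% of flanks of the same rule and 51.9% of all peaks. TGACAG, bound by MEIS and TGIF homeodomain proteins, was in 345 (12.4%, 11.2 to 13.7), against 7.33% and 11.2%. TGANTCA was in 171 (6.15%), against 3.14% and 5.02%, and in 4.74% of the members without shared sequence. TGTGGT, the RUNX site, was in 271 (9.75%, 8.70 to 10.9), against 7.91% (6.66 to 9.38) and 9.56%, and the intervals overlapped. CCACCC, bound by KLF and SP zinc-finger proteins, was in 7.38% of members, against 5.89% and 9.31%. CATTCC, the TEAD site, was in 8.28% of members, against 4.45% and 7.53%, and in 6.87% without shared sequence. ACAAAG, a SOX core, was in 7.77%, against 6.61% and 7.92%. GCCAAC, read by NF1 proteins, was in 3.78%, against 3.27% and 3.67%. TGTTTAC, a forkhead site, was in 1.84%, against 1.44% and 1.73%. TAATTA, a homeobox site, was in 0.86% of members against 3.34% of flanks and 0.99% of all peaks. ETS cores were more frequent in distal peaks with an E-box and no GATA (59.6%) or with neither motif (63.4%) than in members. Base composition differed between these windows, as the median GC content was 50.5% in members and 43.6% in flanks of the same rule.

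Summits of members lay between genes in 1477 (53.1%, 51.3 to 55.0), in introns in 1250 (45.0%, 43.1 to 46.8), in coding exons in 24 and in untranslated or non-coding exons in 28. Of all distal peaks, 53.2% lay between genes and 44.5% in introns. The median distance to a TSS was 26338 bp (24596 to 28501), against 23211 bp (21828 to 24635) for composite peaks. There were 748 members at 1 to 10 kb and 500 at over 100 kb. Another SCL summit lay within 10 kb of 839 members (30.2%, 28.5 to 31.9), against 29.1% of composite peaks and 36.1% of peaks with neither motif. Chromosome Y held 0 members among 5 distal peaks, which allows a share of up to 43.5%. On the others, their share of distal peaks ran from 17.6% (13.8 to 22.2) on chromosome 19 to 28.7% (23.6 to 34.5) on X.

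Members were assigned to the gene with the nearest TSS, which need not be the gene they act on. They fell to 2267 genes, of which 1875 had a single member. Magi1, a scaffold of cell junctions, had 8 of its 16 distal peaks among the members, with folds from 7.32 to 60.3. Nt5c3, a pyrimidine nucleotidase active in red cells, had 6 of 8 (8.18 to 37.3), and Med13l, of the Mediator kinase module, had 6 of 18 (6.92 to 28.7). The unnamed loci 4930488B22Rik and 1500009L16Rik had 5 each. With 4 each and the highest folds followed Gse1, Kalrn, a guanine nucleotide exchange factor, Mtx2, a mitochondrial outer membrane protein, Epha4, an ephrin receptor, and Rere. Their strongest members had folds of 232.8, 102.8, 89.7, 77.7 and 43.3.

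Among the 10 strongest members, the 1st lay on chromosome 11 at 44560165 to 44560705 in an intron of Ebf1, a B cell factor, with a fold of 259.5 (95% counting interval 247.0 to 272.4) from 1618 fragments. The nearest TSS was that of Gm12158, 84255 bp away. The peak 3908 bp from a TSS of Reln, a secreted matrix glycoprotein, had a fold of 252.5 (236.4 to 269.4) and no other SCL summit within 937227 bp. In an intron of Mknk1, a kinase of the translation factor eIF4E, the fold was 252.3 (239.5 to 265.7). The intergenic peak 1874 bp from Rpp25, a subunit of RNase P, had 233.4 (220.2 to 247.1). The peak nearest to Gse1, in an intron of the annotated gene Gm20388, had the most fragments of the 10, 1649, on a background of 6.09, and a fold of 232.8 (221.7 to 244.3). The others had folds of 192.4 near Pde4dip, 188.2 in an intron of Thsd4, 179.7 near Gm13881, for which the nearest protein-coding gene was Lmo2, the bridging partner of SCL, 172.8 near Tcf21, a mesodermal bHLH factor, and 172.3 near 4933440J02Rik. None of the 10 was in shared sequence.

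Genes in the study's list of SCL-activated genes had 284 members (10.2%, 9.15 to 11.4), at 202 of 511 genes, against 11.05% of other distal peaks. Their median fold was 12.6 (11.1 to 14.4), where that of all distal peaks was 11.3 and that of the other peaks at these genes 13.99. At genes listed as repressed, 97 members were found (3.49%, 2.87 to 4.24), at 74 of 262 genes, against 3.84% of other distal peaks, with a median fold of 11.6 (9.61 to 14.3), beside 10.7 in the other peaks at these genes. The study chose both lists with these same libraries, so they are not independent evidence. The differences from other distal peaks were -0.83 points (-2.09 to 0.51) and -0.35 points (-1.10 to 0.49). The 5 strongest members at activated genes were those at Reln, Mknk1, Rpp25, Gse1 and Pde4dip given above. At repressed genes, the strongest had a fold of 98.8 and lay 67434 bp from 1500016L03Rik. In an intron of Smad1, the transducer of BMP signals, the fold was 94.7 (87.0 to 103.0), with CATATG 9 bases before GATA. Peaks near Ap1m2, a clathrin adaptor subunit, in an intron of Etv5, an ETS factor, and near Pvrl1, the adhesion protein nectin-1, had 75.1, 70.1 and 58.8. At Etv5 the motifs overlapped.

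Members were then read by gene lists for the SCL complex and the lineages of mesoderm, where each list is described by its counts beside the median fold of 11.3 over all distal peaks and that of the other distal peaks at its genes. Of 15 genes of the SCL complex, 5 had members, 6 in all, with a median fold of 23.8 and a range of 8.49 to 142.7. The strongest lay in an intron of Gata1, the erythroid partner factor, 3586 bp from a TSS, with 489 fragments on a background of 2.43. The member of fold 179.7 whose nearest protein-coding gene was Lmo2 counted under Gm13881, and so is not in this list. Runx1, needed for blood to form from endothelium, had a member of fold 41.2 (36.6 to 46.1) with CACATG and CAGATG, 57872 bp away. Ldb1, the bridging protein, had a member in an intron with a fold of 34.3 and CAGTTG 2 bases after GATA. Cbfa2t3, which encodes the corepressor ETO2, had members of 13.3 and 8.49. Thus 3 of 6 reached a fold of 20, where 25.1% of all peaks did. The other distal peaks at genes of this list had a median of 15.1.

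Of 33 blood transcription factors, 11 had members, 16 in all, with a median fold of 15.0 (10.2 to 41.2). A fold of 20 was reached by 7 of the 16 (43.8%), where 25.1% of all peaks reached it. The other distal peaks at these genes had a median of 16.8. After Gata1 came Gfi1b, a repressor of the erythroid and megakaryocyte lines, with 92.2 (85.2 to 99.8) and an E-box 16 bases before GATA. Zbtb16, the zinc-finger factor PLZF, followed with 41.4 (34.9 to 48.7) and overlapping motifs. Of 33 red cell genes, 6 had members, 8 in all, with a median of 12.6, where the other distal peaks at these genes had 19.4. The member in an intron of Gypc, which encodes a glycophorin, had 136.7 (125.5 to 148.7). Slc25a37, the mitochondrial iron importer mitoferrin, had 48.0 (42.0 to 54.6), and Spnb1, erythroid spectrin, 12.9 (9.52 to 17.1). Of 29 blood receptor and signalling genes, 6 had 9 members. None of these 9 reached 20, and their median was 9.21 (8.35 to 14.6), where the other distal peaks had 13.8. Cxcr4, the chemokine receptor, had the highest, 16.2 (12.7 to 20.5), and Tgfbr2, Sla and Lyn had pairs from 8.35 to 14.6. The Lyn windows each shared sequence with 1 other distal window.

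Endothelial genes had 24 members at 16 of 40 genes, with a median fold of 12.1 (7.57 to 20.6). A fold of 20 was reached by 7 of the 24 (29.2%), near the 25.1% of all peaks. The other distal peaks at these genes had 12.4. Egfl7, a secreted endothelial protein, had 84.6 (77.6 to 92.1) and 26.3 (22.0 to 31.1), the latter with CAGCTG and 4 AGATAA motifs in its window. Kdr, which encodes FLK1, the receptor the cells were sorted on, had 4 of its 10 distal peaks among the members. Their folds were 41.3 (35.3 to 47.9), 16.8, 13.9 and 8.13, and 3 of the 4 held CAGCTG. They lay 34628 to 88961 bp from a TSS. Hey2, a repressor downstream of Notch, had 42.1 (36.2 to 48.6) and 7.57, and Tspan18, an endothelial tetraspanin, 29.9 (24.9 to 35.8).

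Cardiac genes had 12 members at 9 of 35 genes, with a median fold of 8.28 (7.77 to 22.7). Of these 12, 3 reached 20, a share near the 25.1% of all peaks. The other distal peaks there had 9.73. Zfpm2, the GATA4 cofactor FOG2, which is also in the list of SCL-activated genes and that of corepressors, had 26.1, 22.7 and 9.90, all in its introns. Wnt5a, a secreted signal, had 23.8 (19.1 to 29.2), in an intron of Erc2. Tbx20 and Smarcd3, a T-box factor and a chromatin remodeller of the heart, had 9.32 and 8.40. Paraxial and streak genes had 4 members at 3 of 35 genes, with a median of 7.82 beside 8.85 in the other distal peaks, and none reached 20. Foxc2 had 13.04 and 7.56, T, the streak factor Brachyury, 8.09 (5.61 to 11.3), and Pax3 5.25 (3.93 to 6.87). The lists are short, and no difference between them was tested.

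Corepressor and Polycomb genes had 26 members at 13 of 42 genes, with a median fold of 13.2 (9.71 to 19.2). A fold of 20 was reached by 7 of the 26 (26.9%), near the 25.1% of all peaks. The other distal peaks there had 11.4. Gse1, found in CoREST corepressor complexes, had 4 members, of 232.8, 103.2, 15.0 and 5.76. Rybp, a subunit of Polycomb repressive complex 1, had 118.6 (110.5 to 127.1) with CAGCTG 15 bases before GATA, and then 19.2 and 17.97, all over 116 kb from its TSS. Pcgf5, another subunit, had 39.6 (33.3 to 46.8), 11.1 and 9.85. Genes of BMP, TGF-beta and Notch signalling had 18 members at 12 of 37 genes. Their median was 12.6 (8.09 to 23.9), beside 9.32 in the other distal peaks, and 5 of the 18 (27.8%) reached 20, also near that share. Besides 94.7, Smad1 had 43.3 (39.1 to 47.9) and 5.60 in the same gene body. Hes1, a Notch target, had 48.8 (42.3 to 55.9) with an E-box 9 bases before GATA, Maml2, a Notch coactivator, 31.5 (25.8 to 37.9), and Tgfbr1, a TGF-beta receptor, 23.9 (19.0 to 29.6). The share of members at SCL complex genes was 0.22% against 0.48% of other distal peaks, and at paraxial and streak genes 0.14% against 0.33%. In these, in the other 7 lists and in both lists of the study, the interval of the difference included 0.

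**Figure D4:**
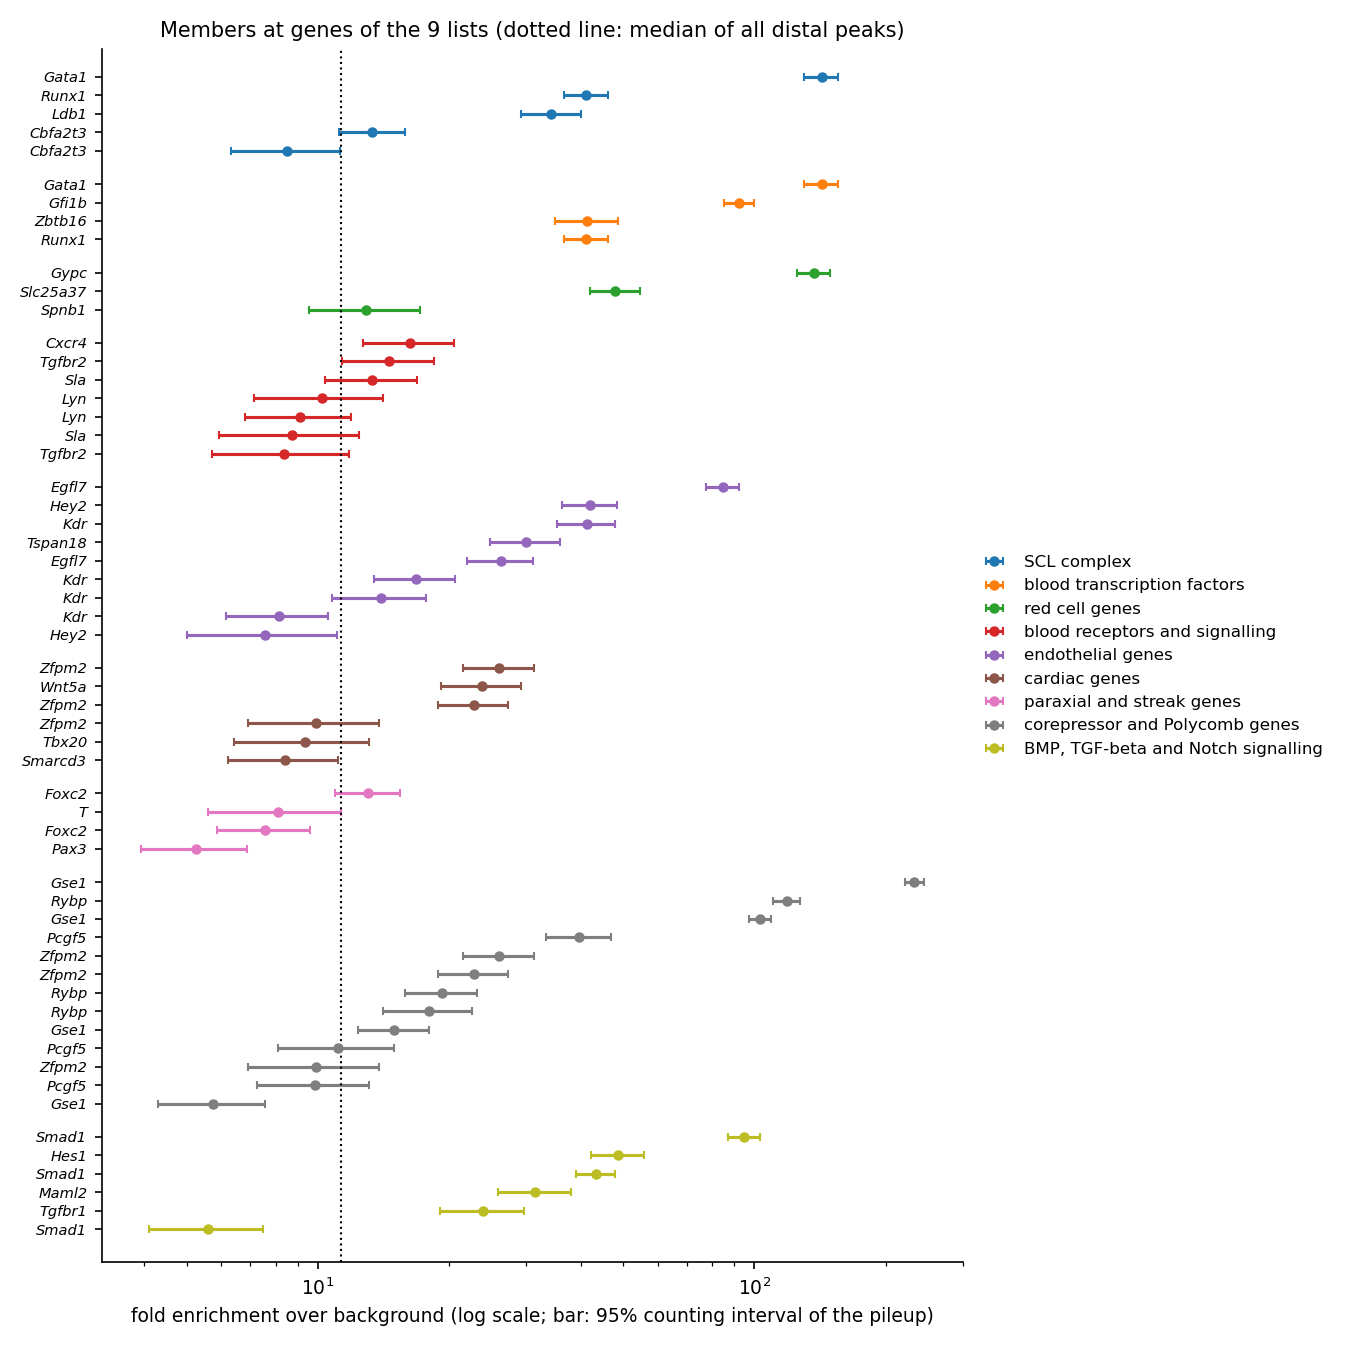
Fold enrichment (x axis, log scale) of the members named in each of 9 gene lists (colours), with gene names on the y axis and bars for the 95% counting interval of the pileup. The dotted line is the median fold of all distal peaks, 11.3, and the members range from 5.25 at Pax3 to 232.8 at Gse1.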

How the data were processed

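SCL was measured by ChIP-seq in 2 libraries, with 2 input libraries. The authors aligned paired reads to mm9 with Bowtie 1.1.2, keeping reads that matched up to 2 places, removed duplicates, called peaks on the merged libraries with MACS2 2.0.10 and set the final list by reproducibility (IDR). The deposited list gives for each peak a fold enrichment, a ratio to local background, and a −log10 p by MACS2. It also gives, as deposited, 2 scores, the −log10 q and a multiple of −log10 p. The number of columns of unmapped samples was 0.

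The members and lists were chosen with earlier results of these data known. Spacings, shared-sequence groups, windows with 1 GATA motif and 1 E-box, and the stretches printed for these were chosen after seeing the data. Summits were compared with 75530 start sites of 26212 genes (GENCODE vM1), and windows were read from NCBIM37, the mm9 assembly. Motifs were searched on both strands. No sequence of chromosome 18 was printed. Windows were aligned with BLAST 2.17.0 (alignments of 50 bp, E value 1e-06) and grouped with networkx 3.6.1. Shares have Wilson intervals, differences of shares Newcombe intervals and medians order-statistic intervals, all at 95%.

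Read totals of the libraries are not given in the sources used here. Depth was taken from the pileup, solved from fold and p (matched within 0.001 in 99.9% of peaks and 100% of members), and intervals of fold are Poisson intervals of the pileup. Named are the 10 members of highest fold, the 10 genes with the most members, the members of up to 4 genes of highest fold in each list, and the 5 of highest fold at each list of the study, from which names and direction were taken (489 activated and 252 repressed names matched directly, 22 and 10 by an alias, 3 and 2 not). Some items that these rules name are not reported here. Scripts ran in Python 3.11.15 (numpy 2.4.6, pandas 2.3.3, scipy 1.17.1, matplotlib 3.10.9) and were tested on simulated data.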

Additional observations from a re-analysis of the deposited data

How the results depend on the processing

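Of 76 values computed under alternatives for 20 results, 38 moved less than the mark set for them (their interval or, for the number of members, a factor of 1.5), 38 moved further, and 0 reversed. The number of members was 2779, and became 4105 in a window of 100 bp each side, 2381 at over 5 kb from a TSS, 2331 with 6 to 10 bp between CTG and GATA in the composite, and 2445 without shared sequence. A window of 25 bp each side left 1215. In these, CAGATG was in 31.6%, AGATAA in 50%, overlapping motifs in 7.74%, the E-box 8 to 10 bases upstream in 23.0%, the E-box 2 bases downstream in 8.23%, and the ETS, RUNX, KLF or SP and MEIS or TGIF motifs in 22.1%, 4.44%, 2.80% and 6.26%. A window of 100 bp each side gave median distances of 21.5 bp (GATA) and 25.5 bp (E-box), and an E-box beside GATA 8.58 points more often than in flanks. With a −log10 q of at least 50, there were 1150 members, the median fold was 23.8, AGATAA was in 61.6%, the E-box was 8 to 10 bases upstream in 19.6%, another summit was near 21.8%, and 11.8% were at activated genes. With 1 peak per chain of summits the median fold was 12.2. Without shared sequence, CAGATG was in 36.0%, AGATAA in 56.0%, the E-box 16 to 17 bases upstream in 4.09% and 2 bases downstream in 4.05%, and introns held 47.0%. In windows with 1 GATA motif and 1 E-box, median distances were 20.5 and 19.5 bp, CAGATG was in 33.8%, CAGCTG in 18.1% and AGATAA in 51.8%, and the overlap, 8 to 10, 16 to 17 upstream and 2 downstream layouts in 2.54%, 13.5%, 5.21% and 5.0%. The last 2 alternatives were chosen after seeing the data. Neighbours were counted within 50 kb at 62.1%. By gene body or 10 kb, 8.64% of members were at activated and 2.05% at repressed genes, and with protein-coding genes only 11.6% were at activated genes. Windows of other width, or with fewer copies, hold fewer or more motifs by construction. The limit on q and the choice of the strongest peak in each chain favour high folds by construction. Likewise, neighbours within 50 kb include all those within 10 kb. The cause of the other shifts was not tested.

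No paired analysis was possible because peaks were called once, on merged libraries. Leaving out a library was not run for the same reason, and no value here has a replicate error.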
